A study of Danio rerio with 82 samples.

Results

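The transcripts described here are those of the DEAD and DEAH box helicases in zebrafish (Danio rerio) oocytes, chosen by name: every locus whose symbol starts with ddx or dhx and a digit, apart from the germ cell gene vasa (ddx4). The rule found 49 of the 28405 loci, under 48 symbols, since ddx41 names a locus on chromosome 9 and another on chromosome 14. The rule uses the symbol and no measured level, although the family was picked for description with earlier results of these data known. The rule also takes in genes that carry the name without being RNA helicases of these families. One is ddx26b, which a current RefSeq table lists as ints6l, a subunit gene of the Integrator complex. Another is ddx11, which in human cells is a DNA helicase of sister chromatid cohesion.

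RNA helicases of these families use ATP to unwind short RNA duplexes or to strip proteins from RNA. Different members act at nearly every step in the life of an RNA, from ribosome assembly in the nucleolus through splicing and export to translation, storage and decay. A growing oocyte makes and stores ribosomes and mRNAs that the early embryo later uses, and in many animals transcription is silent by the time the oocyte matures.

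Oocytes of the wild-type Tu strain were taken from adult female ovaries, sorted by shape with tweezers, and freed of follicle cells as far as possible. The labels call stage I oocytes G1-phase, stage II S-phase, stage III prophase I and stage IV metaphase I, and these phases were not checked here. No genotype or treatment other than the stage separates the groups. Each stage has 1 library of polyadenylated RNA, and the whole series holds 82 samples of gametes, embryos and muscle. How many oocytes or females each library pools was not given in the sources used here.

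Levels are given in FPKM (sequenced fragments, relative to transcript length and to the size of the library), with the authors' lower and upper bounds in parentheses. The bounds concern a single library and say nothing about the spread between females, so no difference below has a replicate check, a standard error or a p-value. Differences are in log2(FPKM + 1), which understates the change of low transcripts, and a locus is called higher or lower when it differs by 1 or more, which is 2-fold here. Calls were made for the 14109 loci whose mean over the libraries reached 1 FPKM, and 48 of the 49 members were among them. The member left out, dhx32b, was at 0.0824, 0.122 and 0.0818 FPKM before stage IV, where it was listed at 0.

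The bounds of the 4 libraries were as narrow as those of at least 6201816 to 6606980 counted fragments. These are lower limits, which do not show that the libraries were of similar size. Of 10 oocyte markers found, 9 reached 1 FPKM in every stage and figla was listed at 0 in all 4. Between stages I and IV, 8 of these 9 were lower and dazl was higher, beside 44.4% and 19.1% of all loci tested. Markers of follicle cells summed to 510, 359, 694 and 208 FPKM from stage I to IV. At stage IV 3 of 12 reached 1 FPKM, against 10 at stage I, and lhcgr, star and fshr were listed at 0. Those that did were cyp11a1 at 170, cyp17a1 at 33.8 and FOXL2 at 1.63 FPKM, so cyp11a1 and cyp17a1 made up nearly all of the stage IV sum. Stromal markers summed to 251, 79.9, 275 and 3.42 FPKM and blood markers to 115, 67.4, 123 and 8.43 FPKM. All 3 sums were lowest at stage IV, and the part of these cells in the helicase differences was not tested. In bulk RNA, fewer cells of a type and less of an RNA per cell cannot be told apart. Of the 49 members, 12 share bases with another locus, and for 10 of them that locus reached 1 FPKM in some stage. Whether the quantification used strand was not stated, so reads of such pairs may not be told apart, and some of the overlaps are named below. A transcript whose poly(A) tail shortens can also leave a poly(A)-selected library without being degraded, which was not tested.

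With the settings above, the helicases as a whole were called about as often as all loci between stages I and IV. At each step between successive stages they were called less often. In either direction, 2.08%, 8.33% and 52.1% of members were called at the 3 steps, beside 5.82%, 16.2% and 62.4% of all loci, and 64.6% between the ends, beside 63.4%. From stage I to stage II, 0 members were called higher, against a background of 2.67% of all loci tested, and 1 was called lower, against 3.15%. From stage II to stage III, 1 member was higher, against 8.67%, and 3 were lower, against 7.50%. From stage III to stage IV, 8 members were higher, against 16.4%, and 17 were lower, against 46.0%. Between the ends, stage IV against stage I, 9 of 48 members (18.8%) were higher, against 19.1% of all loci, and 22 (45.8%) were lower, against 44.4%. With the added demand that the bounds of both stages lie apart, 9 members were higher, against 18.7%, and 21 were lower, against 42.8%. Between the ends both shares lay near the background, so these counts show nothing particular to helicases. These comparisons depended on the settings. With a pseudocount of 5 in place of 1, 7 of 48 members were higher and 20 lower between the ends, beside 15.3% and 27.5% of all loci. From stage III to IV, 7 were then higher and 16 lower, beside 12.8% and 29.0%, so members were not called less often there. From stage I to II, 0 of 48 were then higher and 1 lower, beside 0.454% and 1.22%. Members were not called less often at that step either, though this rests on 1 call. The median difference of the members between stage IV and stage I was -0.58, beside -0.75 for all loci tested. Without the chromosome 9 locus named ddx41, described with the spliceosome below, 9 members were higher and 21 lower of 47, with a median of -0.50. With bounds apart they were 9 and 20, and from stage III to IV 8 were higher and 16 lower.

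Members of different roles went different ways. Of the 14 helicases of ribosome assembly, 12 were lower at stage IV than at stage I, beside 44.4% of all loci. All 4 helicases of mRNA export were higher, beside 19.1%. The 34 members tested outside ribosome assembly had 8 higher, 10 lower and a median difference of -0.08, and 8 and 9 with a median of -0.00 when the chromosome 9 locus was left out. The 48 loci other than that on chromosome 9 summed to 2386, 2397, 1873 and 2932 FPKM over the 4 stages. Within that sum the export helicases held 29.7% in stage I and 60.5% in stage IV. Ribosome assembly helicases held 27.9% in stage I and 5.43% in stage IV.

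**Figure D1:**
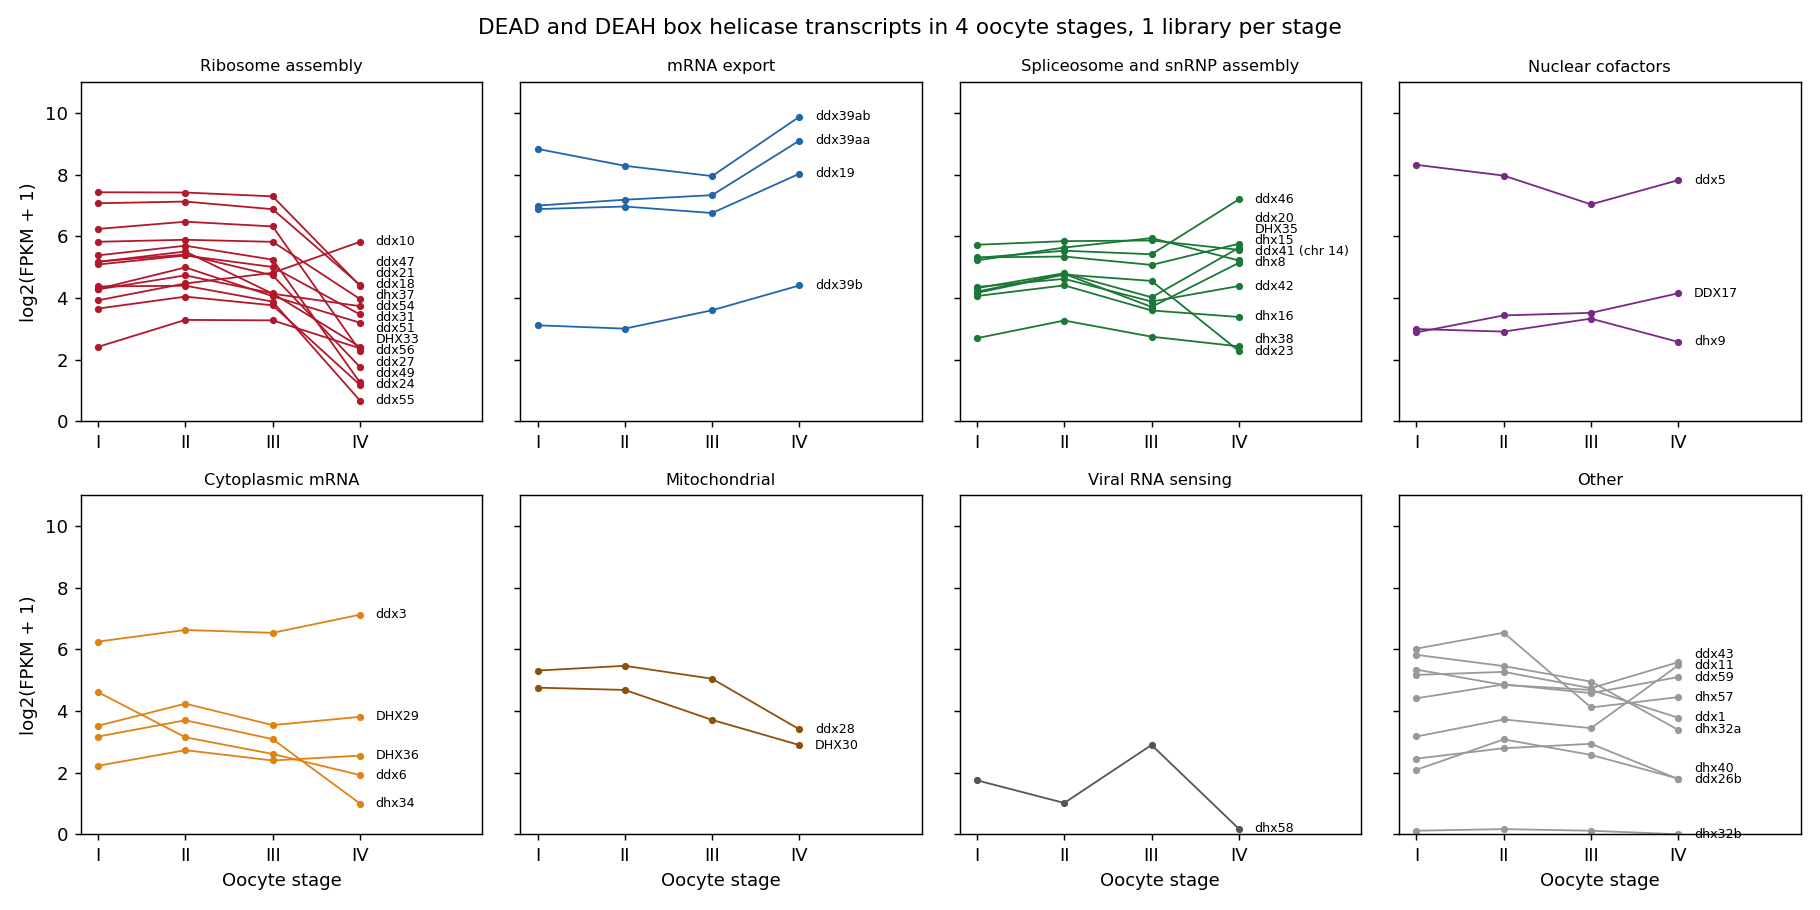
Level of each member, log2(FPKM + 1), in oocyte stages I to IV (1 library per stage), in a panel for each role; each line joins the 4 values of 1 locus, and the chromosome 9 locus named ddx41 is left out. Most red lines of ribosome assembly run nearly level to stage III and drop in stage IV, and ddx10 goes up, while the 4 blue export lines end at their highest level in stage IV.

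Most of these differences were largest at the last step. For 36 of the 48 members the largest of the 3 steps was that from stage III to stage IV, or 35 of 47 without the chromosome 9 locus. For 7 it was the step from stage II to III, and for ddx6, DHX29, DHX36, dhx40 and dhx38 the step from stage I to II. Largest steps were not counted over all loci. Of all loci, 5.82%, 16.2% and 62.4% were called at the 3 steps in order, so these counts are not shown to be particular to helicases. Over the 47 members without the chromosome 9 locus, the median size of a step, taken without its sign, was 0.36, 0.42 and 1.01 in order. At the early steps most bounds that lay apart did so in 1 direction. All loci leaned the same way, but less so than the members. At stage II the bounds of 26 of these members lay above those of stage I and 6 below, beside 33.6% and 10.8% of all loci tested. At stage III 5 lay above those of stage II and 29 below, beside 22.6% and 31.3%. The median level of the 48 loci other than that on chromosome 9 was 21.9 and 27.4 FPKM in stages I and II, beside 12.4 and 15.2 FPKM for all loci tested. Bounds of higher loci can lie apart more readily, and the part of level in these counts was not tested. The median differences of the members were 0.28 and -0.31 for the first 2 steps. On FPKM rescaled by median-of-ratios factors they were 0.05 and -0.15, or 0.06 and -0.17 without the chromosome 9 locus. The medians of all loci, 0.20 and -0.10, turned to -0.01 and 0.05 on that scale.

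**Figure D2:**
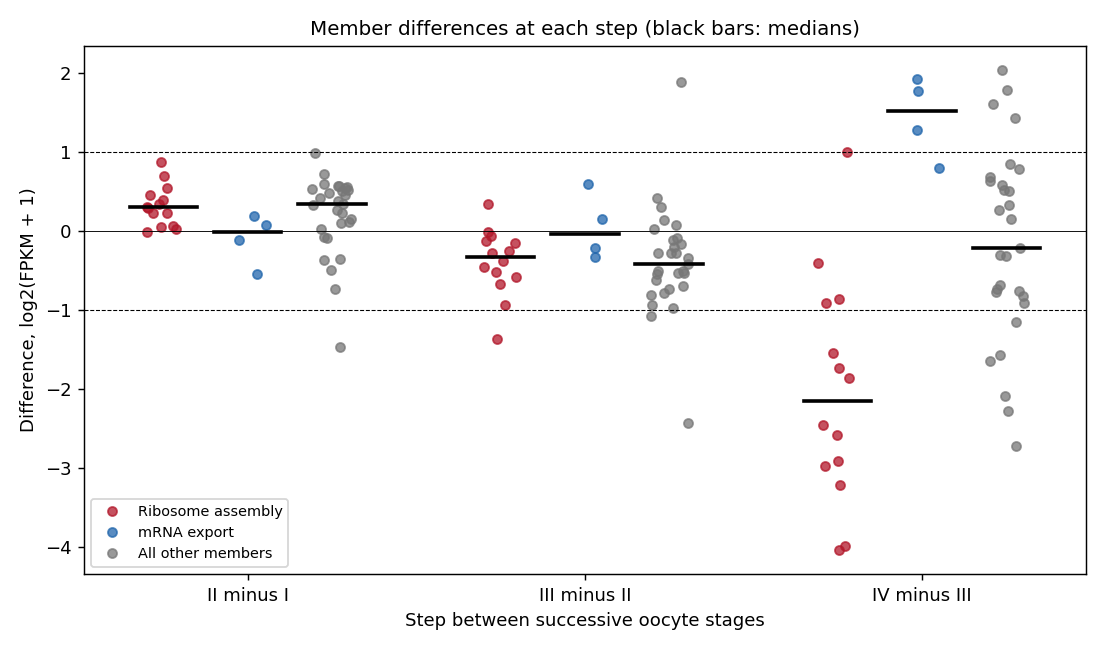
Difference of each member at each step between successive stages, in log2(FPKM + 1), for ribosome assembly (14 loci), mRNA export (4) and all other members tested without the chromosome 9 ddx41 locus; points are loci, black bars are group medians and dashed lines mark a 2-fold difference. The groups overlap at every step. At the third the medians part, at -2.16 for ribosome assembly and 1.52 for export, although ddx10 of ribosome assembly (1.01) lies above ddx39b of export (0.80).

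Ribosome assembly helicases act in the nucleolus, where they release small nucleolar RNAs from pre-ribosomal RNA and reshape the pre-ribosome. As a group they had the lowest median. Of the 14, 1 was higher at stage IV than at stage I, 12 were lower and 1 was within 2-fold. Of all loci tested, 19.1% were higher and 44.4% lower. The median of the 14 was -2.17, or -1.43 relative to the median of all loci. Their summed level was 667, 755, 613 and 159 FPKM over the 4 stages. On the rescaled FPKM the median was -1.89, and 11 were lower and 1 was higher, beside 38.9% and 24.3% of all loci.

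Within this group the lowest difference on the log2(FPKM + 1) scale was that of ddx49, the counterpart of yeast Dbp8 in small subunit assembly (chr11:6951979-6963392 of danRer7). It was at 40.8 (37.4 to 44.2), 50.8 (46.9 to 54.7), 36.9 (33.6 to 40.2) and 1.39 FPKM (0.752 to 2.03) from stage I to stage IV. The first 3 stages lay between 36.9 and 50.8 FPKM, and stage IV lay below all of them with bounds far apart, 29.3-fold under stage I in plain FPKM and at -4.13 on the log2 scale. Its place among the 48 members other than the chromosome 9 locus went from 13 to 43.

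ddx56, the counterpart of yeast Dbp9 in large subunit assembly (chr10:2883569-2902927), was at 74.6, 88.0, 79.1 and 3.88 FPKM. Its stage III and stage IV bounds, 72.9 to 85.2 and 2.99 to 4.76, show a step of -4.04, the largest downward step of any member tested other than the chromosome 9 locus. ddx55, the counterpart of yeast Spb4 (chr10:3405373-3423760), was at 19.7, 20.1, 13.7 and 0.593 FPKM. Its stage IV estimate was 33.3-fold under stage I in plain FPKM. The bounds of that estimate were wide for so low a level, so the ratio is imprecise. Whether it exceeds the ratio of ddx49 cannot be told from these bounds. ddx27, the counterpart of yeast Drs1 (chr6:57386388-57426539), was at 35.3, 41.5, 25.6 and 2.39 FPKM. In all 3 the stage IV bounds lay below those of every earlier stage.

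The most abundant of the group in stages I to III was ddx21 (chr13:174494-184799), which in human cells couples ribosomal RNA transcription to its processing. It stood at 172, 171, 156 and 20.0 FPKM, so that the bounds of stages I to III overlapped and stage IV, with bounds of 16.3 to 23.8, was 8.56-fold under stage I. Next was ddx47, the counterpart of yeast Rrp3 in small subunit assembly, at 134, 139, 117 and 20.5 FPKM. Its locus spans only 661 bases (chr3:988846-989506), so it may hold only part of the gene, and its level is less certain than the others.

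The other large subunit helicases were also lower at stage IV than at stage I. ddx24, the counterpart of yeast Mak5, was at 11.6, 15.5, 12.6 and 1.26 FPKM (chr17:53922567-53930602). ddx51, the counterpart of yeast Dbp6, was at 18.4, 25.6, 16.7 and 4.32 FPKM (chr8:51325955-51350226). Both were highest in stage II and had stage IV bounds below those of every earlier stage. ddx54, the counterpart of yeast Dbp10, was at 33.0, 40.6, 31.1 and 10.1 FPKM (chr5:75308842-75341152). ddx31, the counterpart of yeast Dbp7, was at 18.6, 30.8, 15.7 and 8.17 FPKM (chr5:31353276-31384056) and was the nearest to the 2-fold limit, 2.28-fold under stage I in plain FPKM. It lost its call on the rescaled FPKM and with a pseudocount of 5.

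ddx18, whose yeast counterpart Has1 acts on both subunits, was at 55.7, 58.3, 55.6 and 14.6 FPKM (chr9:39366775-39404529). Its first 3 values agree within their bounds and the stage IV bounds, 13.2 to 16.1, lie apart from them. dhx37, the counterpart of yeast Dhr1 that releases the U3 small nucleolar RNA, was at 35.0, 44.5, 16.6 and 12.3 FPKM (chr8:4717094-4947467). It was the only ribosome assembly helicase called lower already between stages II and III, at -1.37. Its locus shares bases with other loci, most with zgc:63587 (80965 bases), at 12.0 and 23.5 FPKM in stages I and IV. Another is cdc45, which went from 65.6 to 292 FPKM between these stages, so the dhx37 level is uncertain.

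Of the remaining pair, DHX33, tied to ribosomal RNA transcription in human cells, was at 4.33, 8.77, 8.67 and 4.15 FPKM (chr5:2074624-2100962). Stages II and III lay above stages I and IV, whose bounds overlapped. The exception to the group was ddx10, the counterpart of yeast Dbp4, which in yeast frees small nucleolar RNAs from the pre-ribosome of the small subunit (chr21:24398267-24449505). It was at 14.2 (12.5 to 15.9), 21.2 (18.9 to 23.4), 27.2 (24.5 to 29.9) and 55.6 FPKM (52.1 to 59.1). Each stage lay above the one before with bounds apart, a difference of 1.90 between the ends, and its place among the 48 members went from 34 to 7. By the subunit on which the yeast counterpart acts, a split made after the values were seen, all 7 large subunit helicases were lower and 3 of 4 small subunit helicases were lower, with medians of -2.48 and -2.04.

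**Figure D3:**
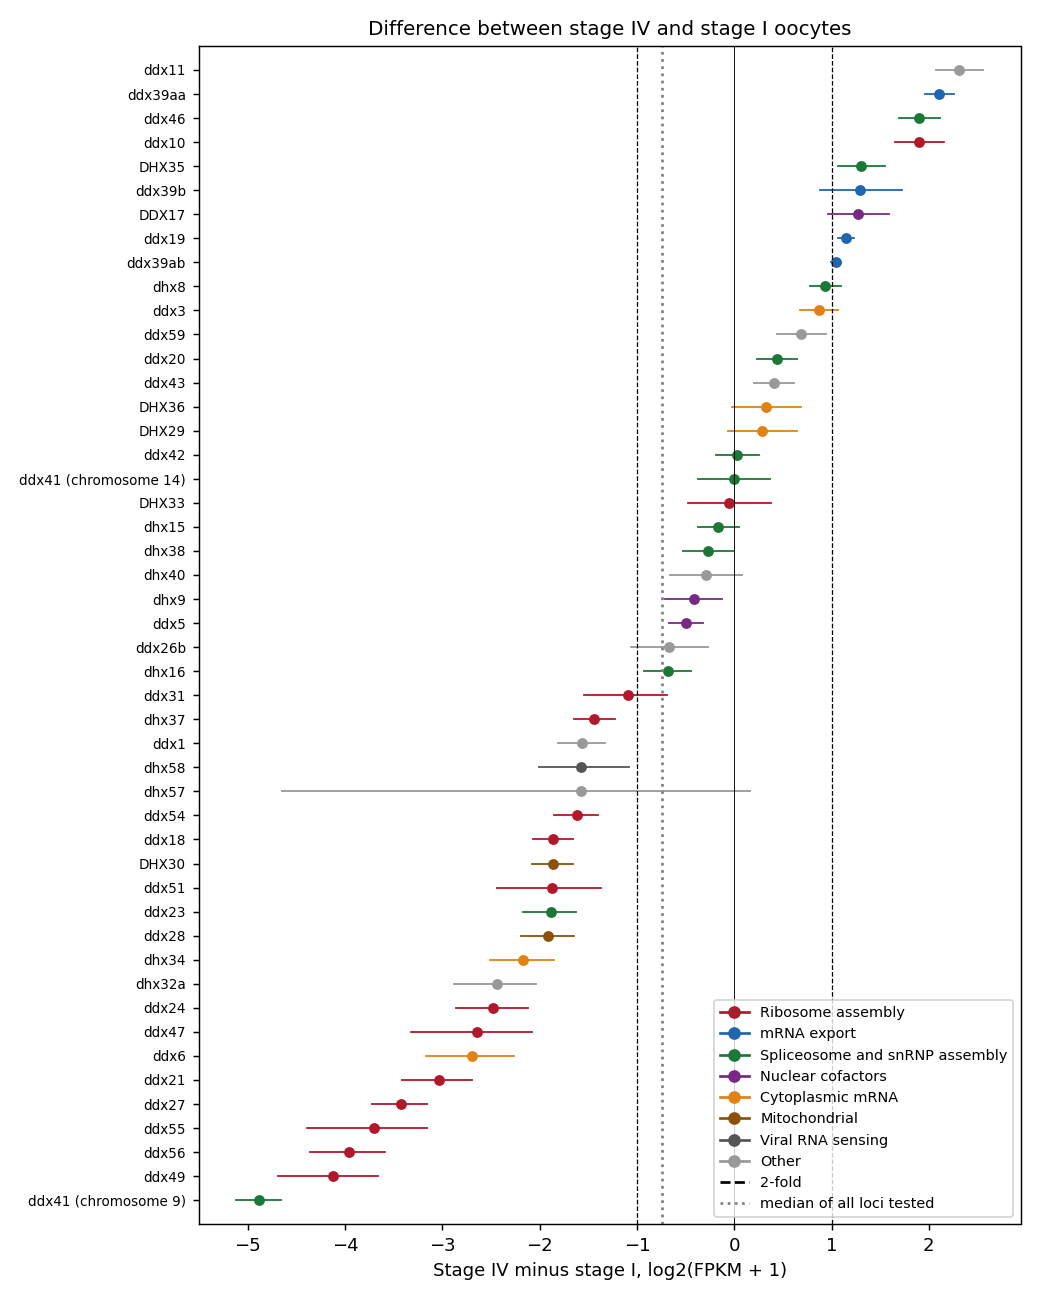
Stage IV minus stage I in log2(FPKM + 1) for the 48 members tested, ordered by size and coloured by role; the horizontal lines run from the lower stage IV bound minus the upper stage I bound to the upper minus the lower, dashed lines mark 2-fold, and the dotted line is the median of all loci tested, -0.75. Of the 14 ribosome assembly loci 12 lie to the left of the 2-fold line, ddx10 lies at 1.90, and the 4 export loci lie at 1.04 to 2.11; the line of dhx57 is far wider than the others.

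The export helicases load export factors onto spliced mRNA in the nucleus and strip them off at the cytoplasmic face of the nuclear pore. All 4 were higher at stage IV than at stage I, beside 19.1% of all loci tested. Their median was 1.22, or 1.97 relative to the median of all loci. All 4 remained higher on the rescaled FPKM, beside 24.3% of all loci, at a median of 1.60. Their summed level was 709, 588, 527 and 1775 FPKM, which was 0.0917% of all FPKM at stage I and 0.260% at stage IV.

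The ddx39 genes encode the export helicase known as UAP56 and its close relative, which join the THO complex on nascent mRNA. ddx39ab (chr3:6136694-6161664) was at 457, 312, 248 and 943 FPKM and was the highest of the 48 members in every stage. It went down by bounds that lie apart at each of the first 2 steps and then up by 1.93, so that stage IV exceeded stage I by 1.04. ddx39aa (chr1:45661398-45670821) was at 127, 145, 161 and 551 FPKM, higher in each stage than in the one before, with bounds that overlapped between stages II and III and a difference of 2.11 between the ends. Its place among the 48 members went from 5 to 2. ddx39b (chr19:27825513-27843347) was at 7.65, 7.03, 11.1 and 20.2 FPKM, with bounds that overlapped between stages I and II only. Its call, at 1.29, was lost with a pseudocount of 5. These 3 loci are close copies, and how reads that match several were assigned was not stated in the sources used here, and the single values are uncertain. Their sum was 591, 464, 419 and 1514 FPKM. It can also depend on that division, since FPKM is relative to transcript length, and on reads shared with loci elsewhere.

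ddx19, listed by RefSeq as ddx19b, acts at the nuclear pore with its activator Gle1 and its dock Nup214 (chr11:3585467-3597690). It was at 117 (113 to 121), 124 (120 to 128), 107 (103 to 111) and 261 FPKM (255 to 267). The first 3 stages lay within a narrow range and stage IV stood above them, at 1.15 over stage I. Transcripts of both partners were also higher. gle1 was at 22.6, 40.4, 25.8 and 52.5 FPKM, 1.18 higher at stage IV than at stage I. nup214 was at 23.8, 29.6, 29.9 and 70.3 FPKM, 1.52 higher. These partners were picked from a list of helicase cofactors after their values were seen. alyref, the export adaptor that the ddx39 products recruit, was on the same list and was within 2-fold, at 407 and 268 FPKM in stages I and IV.

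Spliceosome helicases drive the rearrangements of small nuclear RNAs that activate the spliceosome, carry out both steps of splicing and take the machine apart. As a group they went neither way. Of 11 loci, 2 were higher, 2 lower and 7 within 2-fold between stages I and IV. Of all loci tested, 19.1% were higher and 44.4% lower. Without the chromosome 9 locus named ddx41 the counts of the group were 2 higher and 1 lower of 10. Its median was then 0.01, which was 0.76 above the median of all loci. On the rescaled FPKM the median of all 11 loci moved from -0.00 to 0.38, and without the chromosome 9 locus it was 0.39.

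The highest in stage IV was ddx46, the counterpart of yeast Prp5 that checks the branch point during early assembly (chr21:44358425-44373090). It was at 38.4, 45.4, 41.8 and 146 FPKM, level through stage III and 1.90 higher at stage IV than at stage I. The locus shares 14507 of its 14666 bases with sec24a, a vesicle coat gene at 32.8, 44.5, 46.9 and 19.4 FPKM, so reads could have been divided between the 2 genes and the level is uncertain. DHX35, a helicase of the catalytic spliceosome (chr23:2927690-2945990), was at 19.0, 26.9, 15.2 and 48.4 FPKM. Its stage IV bounds, 45.2 to 51.7, lay above those of every other stage, and the difference from stage I was 1.31.

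dhx8, the counterpart of yeast Prp22 that releases spliced mRNA (chr12:29141484-29159372), was at 17.5, 26.5, 12.1 and 34.2 FPKM. It alternated, with steps of 0.57, -1.07 and 1.43, every time with bounds apart. ddx23, the counterpart of yeast Prp28 that hands the 5′ splice site to U6 RNA (chr23:14305537-14328496), was at 17.0, 26.1, 22.5 and 3.85 FPKM. It was the one spliceosome helicase, apart from the chromosome 9 locus, that was lower in stage IV, at -1.89, with a stage IV upper bound of 4.43.

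The others stayed within 2-fold of stage I. dhx15, the counterpart of yeast Prp43 that takes apart spent spliceosomes and also serves ribosome assembly, was at 52.0, 56.5, 57.3 and 46.3 FPKM, and its stage I and stage IV bounds overlapped. ddx20, known as Gemin3 in the complex that assembles small nuclear ribonucleoproteins, was at 38.8, 39.6, 32.6 and 53.2 FPKM. ddx42, which binds the U2 component SF3B1 in human cells, was at 19.5, 23.6, 13.8 and 19.9 FPKM. Its stage III level was the lowest and stages I and IV did not differ beyond their bounds. dhx16, the counterpart of yeast Prp2, was at 15.7, 20.2, 11.1 and 9.44 FPKM. dhx38, the counterpart of yeast Prp16, was at 5.48, 8.64, 5.70 and 4.39 FPKM. Both were highest in stage II.

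The files give the name ddx41 to 2 loci with unlike levels. The locus on chromosome 14 (chr14:52000144-52017120) was at 36.3, 48.8, 60.6 and 36.2 FPKM, with stages I and IV alike within their bounds. The locus on chromosome 9 (chr9:8443722-8445893) spans 2172 bases and was at 1595, 1167, 1117 and 53.1 FPKM, which made it the highest of all 49 members until stage III. It had the largest difference of any member between stages I and IV, -4.88. Within 40 kb of it lie 5 loci named as copies of EVA1C and 1 unnamed locus, si:ch1073-75o15.4, whose levels followed the same course. EVA1C (7 of 9) was at 1883, 1359, 1432 and 89.1 FPKM, and EVA1C (8 of 9) at 827, 452, 504 and 34.5 FPKM. The differences between stages I and IV of these 6 neighbours ran from -2.10 to -4.54. In stages I to III the chromosome 9 locus thus had levels within the range of its neighbours and far from those of the other locus of its name. In stage IV it was at 53.1 FPKM, beside 36.2 FPKM for the other locus and 34.5 to 451 FPKM for the neighbours. Whether it encodes a helicase was not tested, and no name in the RefSeq table used matched the symbol ddx41. Counts and medians over the members and over the spliceosome group are given with and without it.

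**Figure D4:**
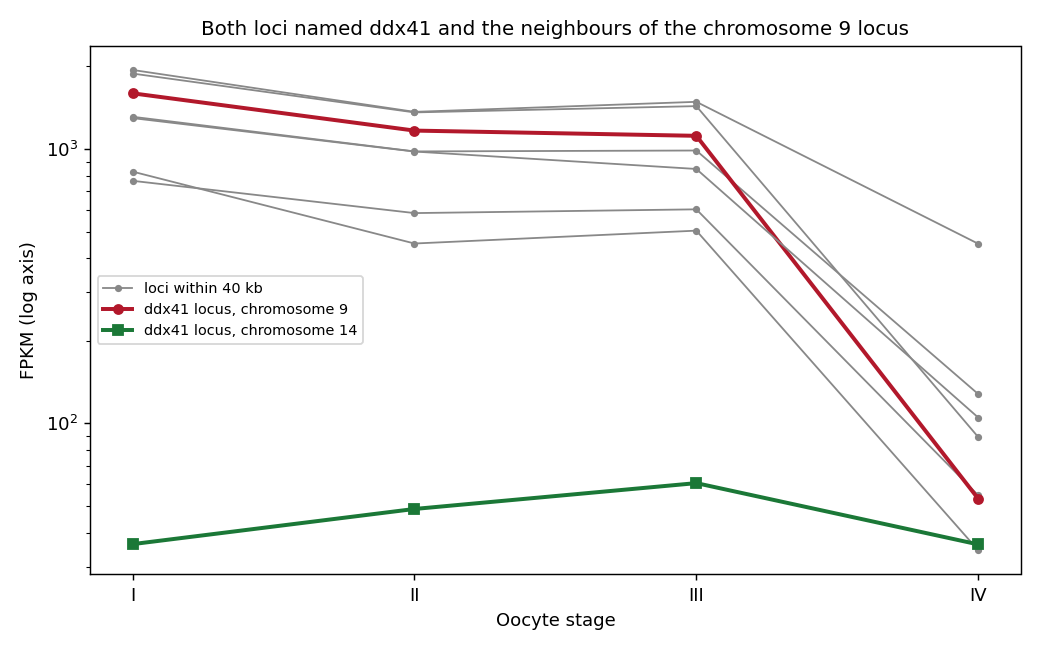
FPKM on a log axis in oocyte stages I to IV for the 2 loci named ddx41 (thick red line, chromosome 9; thick green line with squares, chromosome 14) and for the 6 other loci within 40 kb of the chromosome 9 locus (grey). The red line runs among the grey ones, from 1595 FPKM in stage I to 53.1 in stage IV, and the green line stays between 36.2 and 60.6 FPKM.

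The nuclear cofactors ddx5, DDX17 and dhx9 serve transcription, splicing and microRNA processing in mammals. ddx5 was abundant throughout, at 319, 250.3, 130.5 and 226 FPKM (chr3:25371128-25376670). It had its lowest level in stage III and came back in part, ending at 0.707 times its stage I level. Its relative DDX17 was at 6.37, 9.81, 10.4 and 16.8 FPKM (chr6:23789283-23804029), up at every step, with bounds that overlapped between stages II and III. The difference from stage I was 1.27 and fell short of the limit with a pseudocount of 5, at 0.94. dhx9 was at 6.95, 6.51, 9.05 and 4.95 FPKM and was highest in stage III.

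Among the cytoplasmic helicases, which act in translation, mRNA storage and decay, 0 of 5 were higher and 2 were lower at stage IV than at stage I. Of all loci tested, 19.1% were higher and 44.4% lower. The median of the 5 was 0.29 and they went apart. ddx6, a helicase of processing bodies and of stored maternal mRNA, dropped early (chr18:42272063-42280763). It was at 23.4 (21.1 to 25.8), 7.86 (6.49 to 9.22), 5.09 (3.97 to 6.21) and 2.79 FPKM (1.97 to 3.60). Every stage lay below the one before with bounds apart, and the step from stage I to stage II, -1.46, was the one call of any member at that step. Between the ends it was 8.41-fold lower in plain FPKM, at -2.69 on the log2 scale.

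Some known partners of the ddx6 protein, picked from the cofactor list after their values were seen, went both ways. PATL2, an oocyte protein of stored mRNA, was at 349, 234, 118 and 21.8 FPKM, lower at every step and at -3.94 between the ends. lsm14b, of the same storage complexes, was at 414, 295, 227 and 40.9 FPKM, or -3.31. edc3, a decapping scaffold, was at 21.2, 22.7, 9.77 and 2.74 FPKM, or -2.57. Paralogs of the first pair were higher in stage IV. patl1 was at 69.9, 85.2, 72.0 and 184 FPKM, or 1.39. lsm14aa was at 79.2, 104, 89.0 and 237 FPKM, or 1.57, and lsm14ab went from 28.5 to 68.7 FPKM, or 1.24. eif4enif1, which binds the cap-binding protein, was at 68.7, 72.1, 19.2 and 26.5 FPKM, or -1.34, and its largest step was from stage II to stage III. cnot1, on the same list, was at 44.9, 46.4, 34.9 and 13.1 FPKM, or -1.70.

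**Figure D5:**
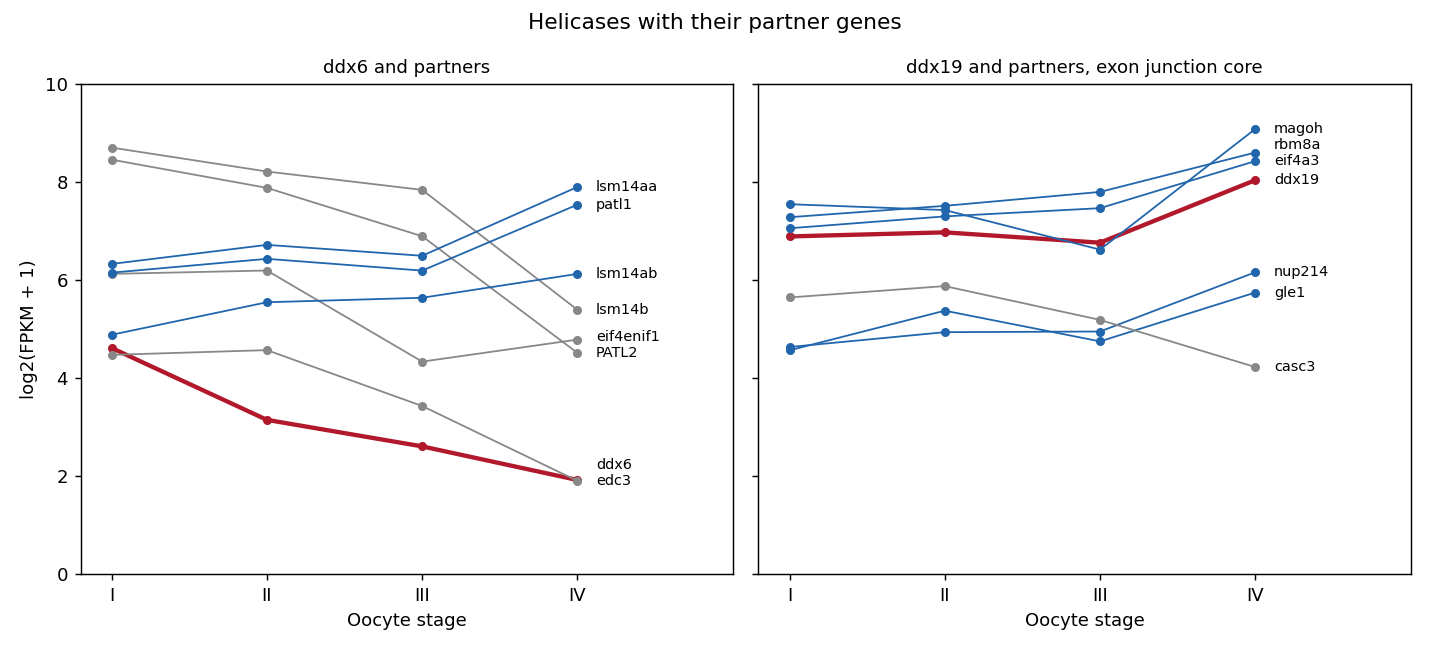
Levels in log2(FPKM + 1) in oocyte stages I to IV of ddx6 with 7 of its partners (left) and of ddx19 with its 2 partners and the exon junction genes (right); helicases of the symbol rule are thick red lines, other genes are blue where stage IV exceeded stage I and grey where it did not. On the left PATL2 and lsm14b go from 349 and 414 FPKM to 21.8 and 40.9 FPKM while patl1 and lsm14aa end at 184 and 237 FPKM, and on the right the blue lines and ddx19 end above where they began while casc3 ends lower.

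dhx34, a helicase of nonsense-mediated decay, was at 8.01, 12.0, 7.50 and 0.996 FPKM (chr18:42983846-43006747). Stage IV lay far below the other stages, 8.04-fold under stage I. The translation helicases differed less. ddx3, listed by RefSeq as ddx3xa, serves translation initiation on structured leaders and was at 75.3, 98.1, 91.9 and 139 FPKM (chr9:34367809-34388046). Its close relative pl10 was at 354, 378, 348 and 595 FPKM, and both were highest in stage IV, at 0.87 and 0.75 over stage I, short of the 2-fold limit. On the rescaled FPKM ddx3 passed it, at 1.26. DHX29, which helps the small ribosomal subunit scan, was at 10.5, 17.9, 10.7 and 13.0 FPKM. DHX36, which resolves G-quadruplexes, was at 3.67, 5.63, 4.26 and 4.86 FPKM. Both were highest in stage II, and their stage I and stage IV bounds overlapped.

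Both mitochondrial helicases, which serve assembly of the mitochondrial ribosome in human cells, were lower in stage IV. The background share called lower between the ends was 44.4% of all loci tested, so 2 of 2 shows little particular to this role. ddx28 was at 38.8, 43.2, 32.1 and 9.58 FPKM, or -1.91 between the ends (chr7:36418435-36420334). DHX30 was at 26.1, 24.7, 12.1 and 6.44 FPKM, or -1.86 (chr2:256480-277540). For both, the stage III bounds lay below those of stages I and II. The largest step of ddx28 was the last, at -1.64, and that of DHX30 was from stage II to III, at -0.97.

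dhx58, known as LGP2 and a sensor of viral RNA, had levels in the same order over the stages as the summed markers of blood, stromal and follicle cells alike (chr3:17334062-17355188). It was at 2.36 (1.71 to 3.01), 1.02 (0.593 to 1.45), 6.45 (5.38 to 7.53) and 0.131 FPKM (0 to 0.281). It was higher at stage III than at stage II by 1.88, the only upward call at that step, and lower in stage IV. Blood markers at the same 4 stages summed to 115, 67.4, 123 and 8.43 FPKM. Of the 7 blood markers 4 were higher at stage III than at stage II, as were 6 of 7 stromal markers and 5 of 11 follicle markers tested. Of all loci tested, 8.67% were higher at that step. The part of these cells in the dhx58 levels was not tested.

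Among the 8 other members tested, 1 was higher and 3 were lower between stages I and IV, beside 19.1% and 44.4% of all loci. ddx11, the cohesion helicase, was at 8.02, 12.2, 9.88 and 43.7 FPKM (chr18:5588286-5620361). The first 3 stages lay between 8.02 and 12.2 FPKM, and stage IV exceeded stage I by 2.31, the largest upward difference of any member. It overlaps the locus wash, which went from 13.4 to 20.9 FPKM, by 665 bases. dhx32a was at 55.6, 43.0, 30.0 and 9.45 FPKM (chr12:45877488-45923665), lower at every step with bounds apart and at -2.44 between the ends. ddx1, part of the tRNA ligase complex in human cells, was at 39.6, 27.8, 24.7 and 12.7 FPKM (chr20:33214105-33228744). Its estimate was also lower at every step, at -1.56 between the ends, with bounds that overlapped between stages II and III. dhx57 was at 64.1 (34.8 to 93.5), 92.2 (54.8 to 129.6), 16.3 (2.23 to 30.4) and 20.9 FPKM (2.78 to 39.0) (chr13:7683913-7716915). Its bounds were far wider than those of other members of its level. The step from stage II to stage III, -2.43, had bounds apart, but stages I and IV overlapped, so its call of -1.57 between the ends is not firm even within these libraries.

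The other 4 were within 2-fold between the ends. ddx43, a helicase of germ cells in mammals, was at 35.1, 37.6, 25.7 and 47.0 FPKM. ddx59 was at 20.3, 28.1, 22.9 and 33.4 FPKM. Both were highest in stage IV with bounds above those of stage I. dhx40 was at 3.27, 7.45, 4.96 and 2.49 FPKM and highest in stage II, and it shares 5080 bases with another locus. ddx26b, the Integrator gene, was at 4.48, 5.92, 6.65 and 2.46 FPKM, and its step from stage III to stage IV was -1.15.

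The courses can be read against each other. Only ddx39aa, DDX17 and ddx10 had a higher estimate at every step. A lower estimate at every step was seen for ddx6, DHX30, dhx32a, ddx1 and ddx21 and for the chromosome 9 locus. The share of all loci with such courses was not counted. Apart from the chromosome 9 locus, which was the highest in stage I, the order of levels differed between the ends: ddx39ab, ddx5, ddx21, ddx47 and ddx39aa led in stage I, and ddx39ab, ddx39aa, ddx19, ddx5 and ddx46 in stage IV. Among those named for stage IV no neighbours in that order had overlapping bounds, but the bounds of ddx46 overlapped those of ddx3, the next member. In stage I the bounds of ddx47 and ddx39aa overlapped, as did those of ddx39aa and the next member, ddx19.

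RNA helicases that carry other names were called about as often as all loci, of which 19.1% were higher and 44.4% lower. Of 20 on the list, 18 were found and 16 tested, with 3 higher, 8 lower (50.0%) and a median of -1.02 between stages I and IV. The largest difference was that of skiv2l (-3.00), the cytoplasmic exosome helicase, at 11.9, 14.1, 8.02 and 0.610 FPKM. Next was eif4a2 (-2.98), a translation initiation helicase, at 13.3, 8.31, 6.47 and 0.804 FPKM. ASCC3, which splits stalled ribosomes, was at 7.33, 7.66, 5.20 and 0.593 FPKM (-2.39), and aqr, a spliceosome helicase, at 19.0, 26.0, 25.0 and 4.06 FPKM (-1.98). The 3 higher ones, named after their values were seen, were skiv2l2, the nuclear exosome helicase, at 56.8 and 207 FPKM at stages I and IV, eif4a3 of the exon junction complex, at 132 and 342 FPKM, and eif4a1a, at 353 and 786 FPKM. Its duplicate eif4a1b was at 132 and 54.7 FPKM.

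Cofactors that activate or tether these helicases were on a list of 44 symbols, of which 41 were found and tested. Between stages I and IV 9 (22.0%) were higher and 19 (46.3%) lower, near the 19.1% and 44.4% of all loci, with a median of -0.87. The largest difference was that of rbm5, a splicing regulator with a G-patch (the domain that activates DEAH box helicases), at 21.9, 26.5, 22.3 and 0.446 FPKM (-3.99). PATL2, given above with ddx6, followed. nkrf, a nucleolar G-patch protein, was at 44.4, 55.6, 28.7 and 2.55 FPKM (-3.68), and lsm14b, also given with ddx6, completes the 4 largest. Of the 17 G-patch proteins tested, grouped after their values were seen, 8 were lower, 2 higher and 7 within 2-fold, a count to read against the same shares of all loci. The nucleolar pinx1 and gpatch4 were among the lower ones, at -2.80 and -2.87. tfip11, which brings dhx15 to spent spliceosomes, and gpkow, a partner of dhx16, were the higher ones, at 1.39 and 1.46, while the dhx15 transcript itself stood at -0.16. In the exon junction complex, magoh at 185 and 539 FPKM and rbm8a at 154 and 386 FPKM were higher in stage IV like eif4a3, and casc3 was lower, at 48.9 and 17.7 FPKM.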

How the data were processed

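Per the file headers, the authors deposited FPKM, its lower and upper confidence bounds and a status for each locus, 1 file for each of 4 poly(A) RNA-seq libraries made with dUTP second strands. For all assays together, the submitters' processing notes list the danRer7 build with Bismark, Bowtie2 2.2.2, STAR 2.5.3a and Trim Galore, and give no roles. The quantification program, and whether it used strand, are not given in the sources used here. Starts in the files count from 0, so 1 was added.

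The 4 tables were joined on symbol and locus (Python 3.11.15, pandas 2.3.3, numpy 2.4.6), and differences were taken in log2(FPKM + 1) among loci whose mean reached 1 FPKM. No test was made, since each stage has 1 library. Fragment equivalents are the counts that would give the deposited bounds by counting alone, and are lower limits. Every member could be named, and members past the 2-fold limit have the value of all 4 stages. Of related helicases and cofactors, the 4 with the largest stage IV against stage I difference in each list were named. Roles follow the gene names, with known functions of yeast and human counterparts. Members, roles and lists were chosen with earlier results of these data known, and the lists of small nucleolar proteins, large subunit assembly and THO genes were added after their values were seen. Of the 48 symbols, 44 matched a RefSeq symbol and 3 a synonym. Alternatives were pseudocounts of 0.1 and 5, no filter, a mean of at least 10 FPKM, and median-of-ratios factors, with others added later: leaving out the chromosome 9 ddx41 locus, demanding bounds apart, and taking stage II as the early stage. No sequence is shown, since no genome of the danRer7 build was used here.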

Additional observations from a re-analysis of the deposited data

How the results depend on the processing

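Of the 31 members called between stages I and IV, all 31 kept their call with a pseudocount of 0.1 and without a filter, 27 with a pseudocount of 5 (ddx39b, DDX17, ddx31 and dhx58 lost it), 28 among loci of at least 10 FPKM (ddx6, dhx34 and dhx58 were filtered out) and 30 on FPKM divided by median-of-ratios factors, where ddx31 lost its call and ddx3, ddx59 and dhx8 gained one. These factors were 1.02, 1.20, 1.07 and 0.777, and they moved the median of all loci between stages I and IV from -0.75 to -0.48. Under them 12 members were higher and 21 lower, beside 24.3% and 38.9% of all loci (12 and 20 of the members without the chromosome 9 ddx41 locus), and the difference of DHX33, dhx38, dhx15 and the chromosome 14 ddx41 locus, none of them called, changed sign. Between stages III and IV they gave 14 members higher and 16 lower in place of 8 and 17 (14 and 15 without that locus). Of all loci, they gave 23.0% higher and 38.9% lower at that step, in place of 16.4% and 46.0%, so members were no longer called less often there. Under them the median of the members was 0.0499 from stage I to II and -0.15 from stage II to III. Between stages I and IV, a pseudocount of 0.1 gave 9 members higher and 22 lower, beside 20.6% and 49.4% of all loci. A pseudocount of 5 gave 7 and 20, beside 15.3% and 27.5%. No filter gave 9 and 22, beside 9.75% and 23.4%. The stricter filter gave 9 and 19 among the members it kept, beside 25.2% and 42.0%. From stage I to II, a pseudocount of 0.1 gave 2 members higher and 2 lower, beside 5.29% and 5.10% of all loci. At that step the stricter filter gave 0 lower, beside 1.62%. From stage II to III, a pseudocount of 5 and the stricter filter each gave 0 higher, beside 3.50% and 3.78% of all loci. The median of the mitochondrial pair between stages I and IV was -2.00 and -1.51 with pseudocounts of 0.1 and 5 and -1.54 on the rescaled FPKM. The cause of these shifts was not tested. With 1 library per stage, differences between females, dissections and libraries cannot be told apart from those between stages.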

Other observations

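Most of the other nucleolar genes looked at were also lower in stage IV, in lists written after their values were seen. The 9 proteins of small nucleolar ribonucleoproteins summed to 1419, 1415, 1072 and 259 FPKM over the 4 stages, with 0 higher and 7 lower between the ends and a median of -2.79, beside 44.4% of all loci lower. dkc1, the pseudouridine synthase dyskerin, was at 71.8, 84.9, 40.7 and 6.86 FPKM. fbl, the methyltransferase fibrillarin, went less far, at 143, 146, 76.0 and 73.3 FPKM. The paralogs of the shared RNA-binding protein parted: from stage I to stage IV, nhp2l1b went from 424 to 31.8 FPKM and nhp2l1a from 52.9 to 40.5 FPKM. The 3 genes of the PeBoW complex, which matures the large subunit RNA, were all lower, with pes at 58.7 and 6.21 FPKM, wdr12 at 49.1 and 10.7 FPKM and bop1 at 60.6 and 21.3 FPKM.

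The THO complex brings the ddx39 helicases to nascent mRNA. Of 6 THO genes, also listed after their values were seen, 4 were higher and 0 lower between stages I and IV, with a median of 1.25, beside 19.1% of all loci higher. thoc2, its scaffold, was at 49.8, 75.9, 68.2 and 377 FPKM, and thoc1 was at 43.1, 56.0, 48.8 and 146 FPKM. thoc3 and thoc6 were within 2-fold, at 105 and 130.4 FPKM and at 50.5 and 63.6 FPKM.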
